A study of Mus musculus with 2 samples.

Results

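The distal Msx2 mesenchyme described here is a set of single-cell barcodes of the mouse genital tubercle that carried at least 3 of the 5 genes Msx2, Sp9, Notum, Tac1 and Dlx5 and no transcript of Dlx2 or Runx1. It held 2510 of the 25346 barcodes kept, 1260 of 12192 in the male library (10.3%, exact 95% interval 9.80 to 10.9%) and 1250 of 13154 in the female library (9.503%, 9.01 to 10.0%). A barcode was kept when it had at least 4000 unique molecular identifiers (UMIs) and 500 genes and at most 10% mitochondrial UMIs. It also had no UMI of Epcam, Cdh5, Sox10 or Ptprc, which mark epithelium, endothelium, glia and white blood cells. The reference was the 17526 kept barcodes (8352 male and 9174 female) with at most 1 of the 5 genes. The 2152 barcodes (1135 and 1017) with 3 or more of the 5 genes and a UMI of Dlx2 or Runx1 were the nearest set for comparison. Kept barcodes with exactly 2 of the 5 genes were in neither set.

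Both libraries came from wild-type C57BL/6 embryos at Theiler stage 22, embryonic day 14.5, dissociated with collagenase. The male library was a pool of 3 male embryos and the female library a pool of 3 female embryos, taken from 2 litters and sexed by genotyping. No treatment or mutation separated the groups, so that the comparisons are between groups of cells and between the sexes. Each sex had a single library, so no value has a replicate and none was tested. Each value is given for the male and then the female library, and the 95% intervals are exact ones for counting error alone. Levels are UMIs summed over the barcodes of a group, per 1000000 UMIs of that sum (CPM). Ratios are on the log2 scale.

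The genital tubercle is the embryonic precursor of penis and clitoris, and it lengthens as epithelium and mesenchyme exchange Hedgehog, Wnt, fibroblast growth factor (FGF) and bone morphogenetic protein (BMP) signals. Msx and Dlx genes encode homeodomain transcription factors of distal appendage mesenchyme, where Msx genes respond to BMPs, and Dlx5 and its neighbour Dlx6 are needed for normal outgrowth of the tubercle and closure of the urethra. Sp9 is a zinc finger factor of growing appendages, Notum a secreted enzyme that inactivates Wnt proteins, and Tac1 the precursor of the neuropeptide substance P.

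The libraries held 130105692 and 144515562 UMIs over all barcodes. The distal Msx2 mesenchyme held 9119574 and 10073264 UMIs, with a median of 6066 and 6778.5 UMIs per barcode against 5754 and 5939 in the reference and 6787 and 7623 in the distal barcodes with Dlx2 or Runx1. The median mitochondrial share was 6.72 and 6.67%. Of the kept barcode sequences 47 occurred in both libraries, and 0 of these were members in both.

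The members were chosen by the detection of the rule genes, so the levels of these genes are a description. Msx2 (chromosome 13, 53466884 to 53473074, minus strand, mm10) was detected in 92.9% (91.3 to 94.2%) and 93.6% (92.1 to 94.9%) of member barcodes, at 361 and 322 CPM. Dlx5 (chromosome 6, 6877805 to 6882085, minus strand) was detected in 83.3 and 81.5%, at 262 and 234 CPM. Tac1, which lies on the same chromosome (7554879 to 7565834, plus strand), was detected in 69.8 and 64.8%, at 268 and 200.03 CPM. Msx2 was thus found in nearly all members and Tac1 in a smaller share, with the male library above the female one. Sp9 (chromosome 2, 73271925 to 73284706, plus strand, overlapping Cir1) was detected in 64.9 and 60.6% of members, at 155 and 136 CPM. Notum (chromosome 11, 120653788 to 120661175, minus strand) was detected in 36.0 and 39.4%, at 71.6 and 69.8 CPM, so that most members were chosen without it.

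The same genes gave a background in cells that should lack them. In 163 and 113 endothelial barcodes, with a median depth of 15418 and 12337 UMIs, Msx2 was detected in 9.82 and 7.08%, Sp9 in 4.29 and 6.19%, Notum in 5.52 and 3.54%, Tac1 in 6.75 and 8.85% and Dlx5 in 6.13 and 10.6%. Detection in the reference lay near these shares for Msx2 (6.87 and 6.92%), Tac1 (9.83 and 11.5%) and Dlx5 (7.41 and 7.90%). It lay below them for Sp9 (0.982 and 1.02%) and Notum (1.98 and 2.64%). The rule caps the reference at 1 of the 5 genes, and the median depth there was 5754 and 5939 UMIs. These shares thus cannot show whether the reference was at background. The 5 genes were also present in free RNA, at a summed 306 and 309 CPM in barcodes of 10 to 100 UMIs, against 1117 and 962 CPM in members.

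**Figure D1:**
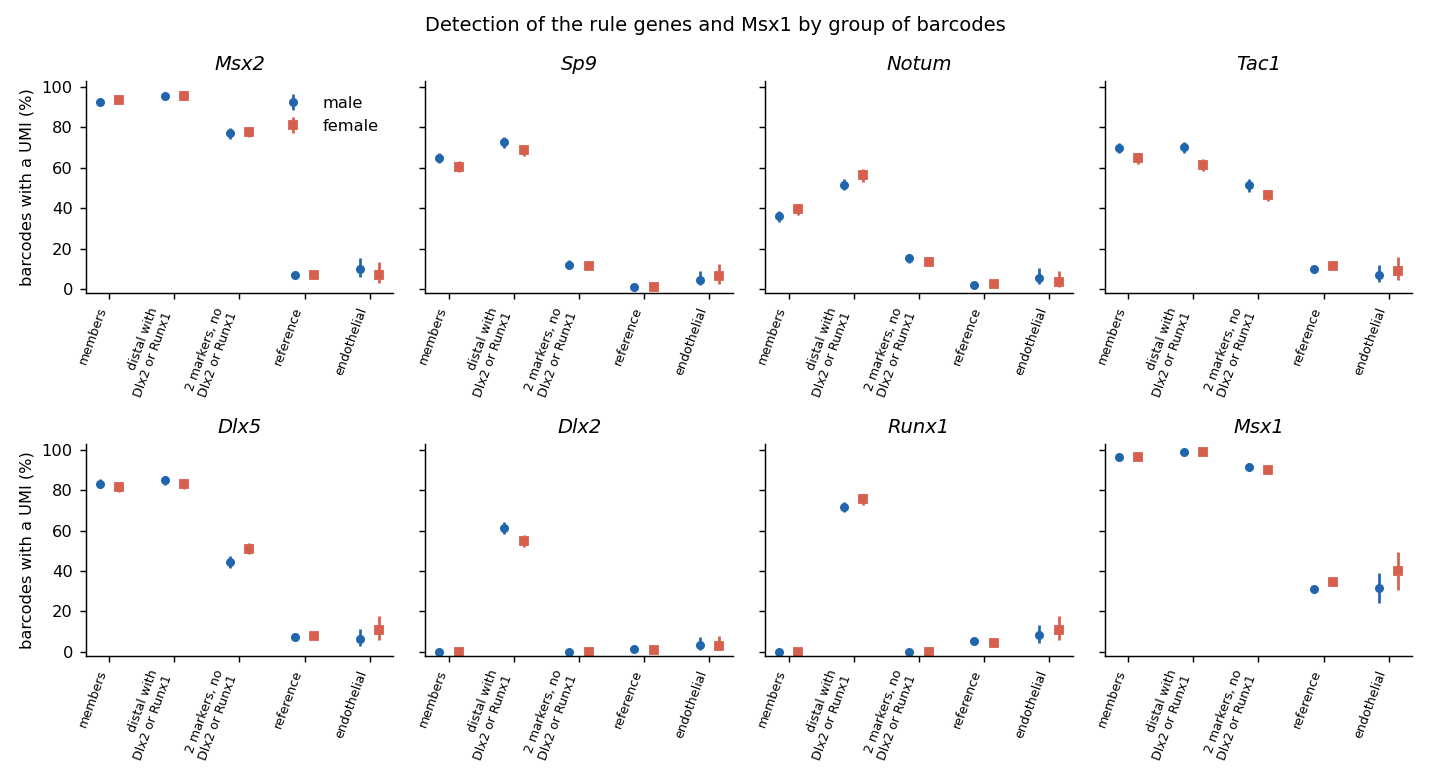
Share of barcodes with at least 1 UMI (%, y axis) of the 5 rule genes, of Dlx2 and Runx1 and of Msx1, in members, distal barcodes with Dlx2 or Runx1, barcodes with exactly 2 rule genes and neither Dlx2 nor Runx1, reference and endothelial barcodes; circles are the male and squares the female library, and bars are exact 95% intervals. Msx1, which the rule did not use, was detected in 96.4 and 96.5% of members and in 30.8 and 34.4% of the reference, while Dlx2 and Runx1 are at 0 in members by construction.

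Members carried several mixtures of the rule genes. Of members, 781 and 825 had exactly 3 of the genes, 368 and 352 had 4, and 111 and 73 had all 5. Msx2 with Sp9 and Dlx5 alone was the most frequent mixture in both libraries (20.6 and 21.2%), followed by Msx2 with Tac1 and Dlx5 in the male library (17.5%) and in the female library (17.4%). All 5 genes together were found in 8.81% of male and 5.84% of female members.

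Each rule gene was also measured with itself left out of the rule, in barcodes that had 3 or more of the other 4 genes and no Dlx2 or Runx1 UMI, against barcodes with at most 1 of the other 4. Sp9 was at 122 and 102 CPM against 6.93 and 6.84 CPM, a log2 ratio of 4.14 (3.97 to 4.32) and 3.89 (3.72 to 4.06). Dlx5 was at 225 and 197 CPM against 34.4 and 36.2 CPM, a ratio of 2.71 and 2.44. Msx2 was at 352 and 307 CPM against 55.2 and 50.4 CPM, a ratio of 2.67 and 2.60. Each of these genes was thus higher where the other 4 alone chose the cells. Notum had a ratio of 2.62 and 2.33, and Tac1 a ratio of 1.90 (1.81 to 1.99) and 1.28 (1.17 to 1.38), the smallest of the 5 in both libraries.

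At the edge of the rule, members with exactly 3 genes were set beside the 1097 and 1366 barcodes with exactly 2 genes and no Dlx2 or Runx1 UMI. Msx2 was at 337 and 305 CPM just inside and at 240.3 and 201 CPM just outside. Msx1 was at 713 and 708 CPM just inside and at 590.5 and 558 CPM just outside. Sp9 was at 110.02 and 98.6 CPM just inside and at 23.8 and 20.6 CPM just outside. Msx1, which the rule did not use, was at 117 and 130.4 CPM in the reference, so that its level just outside was nearer to the members. Msx2 and Sp9 are rule genes, so the number of genes that sets these barcodes apart fixes part of their differences. Nothing is read from them.

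The 3 rule genes with a promoter window in the RefSeq table (GRCm38.p6), Msx2, Sp9 and Tac1, each held in the 250 bases before their RefSeq start 1 copy of TAATTA or TAATTG, core letters that Msx and Dlx homeodomains are known to bind. The stretches around them are shown 5′ to 3′ on the gene's strand, with the match in capitals, because these are the genes that define the cells. They lie at chr13:53472950-53472979 (minus strand, 187 bases before the RefSeq start at 53472780), chr2:73271712-73271741 (plus strand, 202 bases before the start at 73271926) and chr6:7554949-7554978 (plus strand, 100 bases before the start at 7555061). The gene models whose spans are given above begin farther upstream for Msx2 (53473074) and Tac1 (7554879), so that these 2 stretches lie inside those spans and overlap an annotated exon, while that of Sp9 lies before both starts and overlaps no exon.
Msx2: tgactgctcctgTAATTAactcctaattta
Sp9: tgtgtaaattttTAATTGcactgtaatttc
Tac1: cgagggggcggcTAATTAaatattgagcag
Of all 32851 windows of this length, 11.3% held TAATTA or TAATTG on either strand (4.84% TAATTA and 7.17% TAATTG). The window of Msx1 held 0 matches, and among the 16 genes named below as highest against the reference 10 had a window and 1, Tfap2a, held a match. The letters are a description of these windows, and binding was not measured.

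Against the reference, the distal Msx2 mesenchyme differed in many genes, which the choice of cells by distal genes in part fixes. Of 12945 genes with at least 100 summed UMIs, 1594 (12.3%) had a log2 ratio of at least 0.5 in size and the same direction in both libraries, here called past the fold, 483 higher (3.73%) and 1111 lower (8.58%) in members. The median over all genes was -0.06 and -0.04. Because the rule used this contrast, nothing is read from the counts of the lists below, and they are given with these shares as a background.

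The genes highest in members included transcription factors, BMP-responsive genes and surface proteins. Msx1, the close relative of Msx2, was at 769 and 760.1 CPM against 117 and 130.4 CPM in the reference, a ratio of 2.72 (2.67 to 2.77) and 2.54 (2.50 to 2.59). Dlx6, the partner gene of Dlx5, was at 57.0 and 59.3 CPM against 5.95 and 7.02 CPM (3.26 and 3.08). Both libraries thus placed further members of the Msx and Dlx families with the rule genes. Gata3, a zinc finger factor, was at 43.9 and 45.6 CPM against 6.14 and 4.75 CPM (2.84 and 3.26). Tfap2a, the AP-2 factor of craniofacial and limb tissue, was at 60.3 and 60.1 CPM against 7.71 and 8.78 CPM (2.97 and 2.77). Runx3, which stayed in these cells although a Runx1 UMI excluded a barcode, was at 37.1 and 38.1 CPM against 5.70 and 6.40 CPM (2.70 and 2.57).

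Bambi, a decoy receptor that BMP signalling induces, was at 600 and 540.2 CPM against 95.03 and 94.8 CPM (2.66 and 2.51). Hey1, a basic helix-loop-helix repressor downstream of Notch and BMP, was at 51.6 and 42.9 CPM against 9.67 and 8.57 CPM (2.42 and 2.32). Both were among the highest genes in each library. At the cell surface, Itga6, a laminin receptor subunit, was at 169 and 170 CPM against 35.5 and 35.2 CPM (2.26 and 2.27), and Cpm, the membrane carboxypeptidase M, at 123 and 105 CPM against 14.2 and 15.7 CPM (3.11 and 2.74). The netrin receptor gene Unc5b had a ratio of 1.95 and 1.72 and the immunoglobulin family gene Emb of 2.22 and 2.17. The transcriptional cofactor gene Dach1 had a ratio of 2.15 and 1.80, Prr5l of 2.36 and 1.78, the mitochondrial carrier gene Slc25a13 of 1.82 and 1.75 and the cytochrome oxidase subunit gene Cox4i2 of 1.77 and 1.67.

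The gene with the highest ratio under the rule for named genes was an antisense transcript, Gm43376 (chromosome 3, 55890306 to 55936699, plus strand). It was at 99.0 and 72.1 CPM in members against 4.78 and 4.37 CPM in the reference, a ratio of 4.37 (4.17 to 4.57) and 4.04 (3.84 to 4.24). It lies within Nbea, a protein-coding gene on the other strand. Nbea was at 173 and 189 CPM in members against 175 and 196 CPM in the reference (-0.02 and -0.05), so that the overlapping gene stood level while Gm43376 did not.

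The 12 lowest genes included transcription factor, growth factor and matrix genes. Meis1, a homeodomain factor known for proximal limb mesenchyme, was at 40.1 and 43.7 CPM against 159 and 174 CPM (-1.98 and -1.997). Shox2, also a proximal limb factor, was at 23.6 and 34.4 CPM against 97.4 and 133 CPM (-2.05 and -1.95), and it overlaps Rsrc1 on the other strand. Igf1, a growth factor gene, was at 21.8 and 24.8 CPM against 102 and 92.8 CPM (-2.22 and -1.90). The matrix genes Col14a1 (-1.96 and -1.94) and Ogn (-2.46 and -1.89, overlapping Cenpp) and the factors Creb5 (-2.10 and -1.55) and Bnc2 (-1.87 and -1.57) lay with them. So did the glutamate receptor gene Gria2 (-1.77 and -2.002), Fxyd7 (-1.75 and -1.69), the overlapping neurofilament genes Nefm (-1.64 and -1.65) and Nefl (-1.59 and -1.87), and the membrane linker gene Ezr (-1.64 and -1.63).

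**Figure D2:**
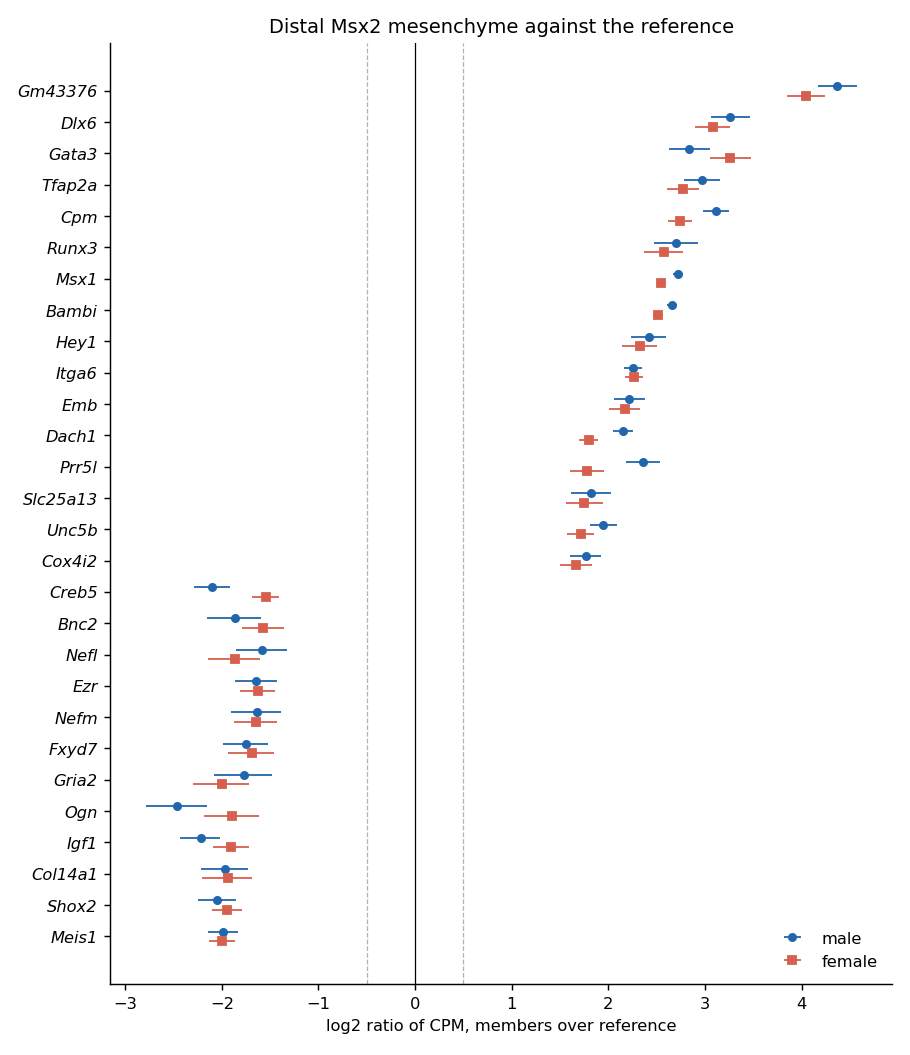
Log2 ratio of CPM in members over the reference (x axis) for the 16 highest and 12 lowest genes under the naming rule (y axis); circles are the male and squares the female library, bars are exact 95% intervals for counting error and dashed lines mark 0.5 and -0.5. Gm43376 stands highest at 4.37 and 4.04, and Meis1 is placed lowest by the ratio nearer 0 (-1.98, beside -1.997), although Ogn reaches -2.46 in the male and Gria2 -2.002 in the female library.

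Of 5 measured Msx, Dlx and Sp factors outside the rule, 4 were past the fold and higher, namely Msx1, Dlx6, Dlx3 (3.52 and 3.28) and Sp7 (1.95 and 2.08), and 0 were lower. Sp5 was at -1.02 and -0.18. Of 14 outgrowth and appendage factors 7 were higher, among them Tfap2a, the limb factor gene Lhx9 (3.33 and 2.64), Hand2 (64.3 and 65.8 CPM against 19.2 and 21.7 CPM, 1.74 and 1.60) and Snai1 (1.18 and 1.14). The 2 lower ones were En1 (-1.76 and -1.68) and Twist2 (-1.15 and -1.08). Twist1 was at 971 and 1029 CPM against 884 and 1035 CPM, within 0.14 of the reference in both libraries.

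Of 36 regional transcription factors 7 were higher and 13 lower in members, with a median of -0.28 and -0.26. Those higher included Gata3, the skeletal patterning factors Alx1 (1.36 and 1.21) and Alx4 (0.87 and 0.70), Prrx2 (0.78 and 0.77), Tbx3 (265 CPM in both libraries against 158 and 163 CPM, 0.74 and 0.70) and the hindlimb factor gene Pitx1 (0.57 and 0.59). Those lower included Meis1, Shox2, Meis2 (-1.45 and -1.23), Osr2 (-1.01 and -1.02) and the nuclear receptor genes Nr2f1 (-1.28 and -1.29) and Nr2f2 (-1.85 and -1.24). Isl1, a LIM homeodomain factor required for the tubercle, was at 444 and 486 CPM against 402 and 458 CPM (0.14 and 0.09). Isl1 was thus near the reference level in these cells while Meis1 and Shox2 were well below it.

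Posterior Hox genes pattern the distal end of limbs and tubercle. Their list, which also holds Hottip and Evx2, had genes past the fold in both directions. Of 17 measured, 4 were higher and 2 lower, with a median of 0.31 and 0.42. Hoxa13, needed for tubercle outgrowth, was at 115 and 111 CPM against 75.6 and 71.8 CPM (0.61 and 0.63). Hoxd13, its partner, was at 204 and 217 CPM against 146 and 161 CPM (0.49 and 0.43), just short of the fold. The others past the fold were Hoxb9 (1.30 and 1.24), the non-coding Hottip beside the HoxA cluster (1.23 and 1.29) and Evx2 (0.61 and 0.72), which were higher, and Hoxd8 (-1.48 and -0.78, from 7 and 11 member UMIs) and Hoxc11 (-0.52 and -0.66), which were lower.

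Among BMP genes, Bmp4 and most response genes were higher in members. Bmp4 was at 92.9 and 76.1 CPM against 37.7 and 32.8 CPM (1.30 and 1.22). Bmp7 was at 32.1 and 31.1 CPM against 22.03 and 23.9 CPM (0.54 and 0.38). Of 18 ligands, antagonists and receptors measured, 2 were higher, Bmp4 and the antagonist gene Nog (0.72 and 1.08). The 5 lower ones included the antagonist genes Grem1 (8.005 and 14.1 CPM against 28.0 and 47.0 CPM, -1.81 and -1.74) and Fst (-0.92 and -0.78), Bmp3 (-1.15 and -0.79) and the receptor gene Bmpr1b (-1.11 and -1.04). The antagonists thus differed among themselves, Nog higher and Grem1 lower.

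Of 10 BMP response genes 9 were higher and 0 lower, with a median of 0.88 and 0.94. The inhibitory Smad7 was at 279 and 222 CPM against 102 and 88.3 CPM (1.46 and 1.33), and Smad9 had a ratio of 1.31 and 1.35. Id1, an inhibitor of basic helix-loop-helix factors and a direct BMP target, was at 795 and 760.3 CPM against 446 and 438 CPM (0.83 and 0.79). Id4 (0.86 and 0.94), Id2 (0.79 and 0.70), Id3 (0.73 and 0.64) and Atoh8 (0.90 and 0.95) completed the group with Bambi and Hey1. Smad6 was at 0.50 and 0.36.

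Wnt ligand genes were mixed in members. Wnt5a, which drives elongation of limbs and tubercle, was at 525 and 527 CPM against 234.5 and 263 CPM (1.16 and 1.00). Wnt6 (1.72 and 1.83) was the other of 7 measured ligands that was higher. Wnt11 (-0.88 and -1.40), Wnt2 (-0.69 and -0.51) and Wnt9a (-0.80 and -1.48, from 12 and 7 member UMIs) were lower. Of 12 secreted antagonists and R-spondins, 2 were higher, Dkk3 (0.97 and 0.99) and Dkk1 (107 and 101 CPM against 68.9 and 60.1 CPM, 0.63 and 0.75). The 5 lower ones were Sfrp1 (-1.41 and -0.90), Sfrp2 (115 and 130 CPM against 276 and 253 CPM, -1.26 and -0.97), the R-spondin genes Rspo1 (-1.85 and -1.83) and Rspo3 (-0.92 and -0.51), and Cpz, which had under 2 CPM in every group. Among these the Dkk genes past the fold were thus higher and the Sfrp genes past it lower.

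Of 21 Wnt response genes and receptors 7 were higher and 3 lower. Lef1, a nuclear effector of Wnt signals, was at 131 and 144 CPM against 62.9 and 79.8 CPM (1.06 and 0.86). Nkd2 (1.13 and 0.75), Fzd10 (0.98 and 0.67), Rnf43 (1.24 and 0.94), Tcf7 (0.53 and 0.59), Apcdd1 (0.59 and 0.75) and Lrp4 (0.55 and 0.50) were the others higher, although Rnf43 was under 2 CPM. Lgr5 (-0.81 and -1.17), Fzd7 (-0.71 and -0.71) and Ror2 (-0.55 and -0.54) were lower. Axin2, a general feedback target, was at 75.3 and 92.0 CPM against 56.3 and 69.1 CPM (0.42 and 0.41), short of the fold.

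FGF ligand and receptor genes showed 2 higher and 2 lower of 9 measured. Fgf9 was at 40.6 and 38.4 CPM against 9.06 and 12.2 CPM (2.16 and 1.65) and Fgfr3 had a ratio of 1.70 and 1.78. Fgf18 (-2.53 and -2.72) and Fgf7 (-1.29 and -1.24) were lower. Fgf10, the mesenchymal ligand of early outgrowth, was at 6.80 and 8.74 CPM against 9.69 and 10.4 CPM (-0.51 and -0.25), and the receptor gene Fgfr2 was level (0.02 and -0.06). Of 12 FGF response genes 5 were higher, namely Etv4 (23.4 and 20.8 CPM against 4.15 and 4.63 CPM, 2.49 and 2.17), Etv5 (1.71 and 1.97), Spry4 (1.65 and 1.20), Etv1 (1.03 and 1.16) and Spry1 (0.94 and 0.92). The ETV factors and Sprouty inhibitors are known to follow FGF receptor activity. Spred3 (-0.56 and -0.72) was lower, and Dusp6 (0.43 and 0.14) was short of the fold.

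Hedgehog genes were mostly level or lower in members. Of 15 measured 1 was higher and 6 lower, with a median of -0.41 and -0.49. Gli3, the main repressor among the pathway's transcription factors, was at 95.4 and 93.9 CPM against 47.9 and 52.7 CPM (0.99 and 0.83). The forkhead target genes Foxf1 (-1.07 and -0.65), Foxf2 (-1.01 and -0.66) and Foxl1 (-1.73 and -1.51) and the co-receptor gene Gas1 (-0.65 and -0.67) were lower. The direct targets Ptch1 (163 and 191 CPM, -0.01 and 0.21) and Gli1 (-0.17 and 0.12) stood near the reference. In retinoic acid metabolism, the degrading enzyme gene Cyp26b1 was higher (54.6 and 57.2 CPM against 36.0 and 32.2 CPM, 0.60 and 0.83) and the synthesizing enzyme gene Aldh1a2 lower (3.95 and 6.06 CPM against 26.4 and 19.6 CPM, -2.74 and -1.70). Of the 13 genes measured in that group, Cyp26b1 alone was higher and 4 were lower, Aldh1a2, Aldh1a3 (-0.95 and -1.02, from 7 and 6 member UMIs), the receptor gene Rarb (-1.20 and -0.71) and the carrier gene Stra6 (-0.66 and -0.76).

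Of the tachykinin list only Mme reached 100 summed UMIs. Mme, which encodes neprilysin, a peptidase that can cleave substance P, was at 47.5 and 46.7 CPM in members against 101 and 89.3 CPM in the reference (-1.09 and -0.94). Of 7 steroid enzymes and receptors measured, the oestrogen receptor gene Esr1 was higher (6.58 and 5.86 CPM against 2.01 and 1.45 CPM, 1.71 and 2.02) and Srd5a2, the enzyme that makes dihydrotestosterone, lower (1.43 and 1.29 CPM against 4.02 and 4.42 CPM, -1.50 and -1.78). Of 18 ephrin and Eph genes 0 were higher and 4 lower, Epha3 (-1.85 and -1.18), Efna5 (-0.90 and -1.04), Epha4 (-0.91 and -0.72) and Ephb3 (-0.61 and -0.75).

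Of 26 matrix genes of differentiating mesenchyme 10 were past the fold and lower in members, 3 were higher and 13 did not pass, with a median of -0.63 and -0.38. Col3a1 was at 329 and 334 CPM against 708 and 625 CPM (-1.11 and -0.90), and the proteoglycan genes Dcn (-1.29 and -1.21) and Lum (-1.12 and -1.17), Postn (-1.48 and -1.31) and Tnc (-1.39 and -1.08) were lower too. Col6a3 (129 and 100.5 CPM against 63.8 and 54.0 CPM, 1.01 and 0.90), Bgn (0.60 and 0.72) and Fmod (1.00 and 2.34) were higher. Of 11 skeletal progenitor genes, Runx3, Runx2 (1.54 and 1.36) and the tendon factor gene Mkx (0.56 and 0.74) were higher. Matn4 (-1.99 and -2.21) and the tendon factor gene Scx (-1.80 and -1.31) were lower.

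S phase genes stood close to the reference and mitosis genes above it. Of 22 S phase genes 0 were past the fold in either direction, with a median of 0.18 and 0.01. Of 24 mitosis genes 2 were higher, Top2a (657 and 785 CPM against 432 and 533 CPM, 0.61 and 0.56) and Nusap1 (0.50 and 0.52), with a median of 0.41 and 0.39. The mitosis genes summed to 4790.5 and 5323 CPM in members against 3459 and 4005 CPM (0.47 and 0.41). Of 20 hypoxia and glycolysis genes 1, Ndrg1 (-1.35 and -1.54), was lower. The 14 immediate early and heat shock genes held 0 past the fold. Of 13 imprinted growth genes 5 were lower, Igf2 (-1.39 and -1.37), H19 (206 and 261 CPM against 529.5 and 534 CPM, -1.36 and -1.03), Plagl1, Cdkn1c and Meg3.

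Markers of most other cell types were at low summed levels in members, and the sum of erythroid markers was not low. The 17 epithelium markers summed to 18.97 and 14.9 CPM in members and 28.1 and 17.9 CPM in the reference, against 3951 and 2623 CPM in barcodes with 2 or more Epcam UMIs, and 2 of the 17 were at 0 in members of each library. The 8 endothelium markers summed to 8.88 and 9.13 CPM against 3405 and 3077 CPM in endothelial barcodes. The 8 immune markers summed to 1.54 and 6.25 CPM in members and 33.2 and 14.0 CPM in the reference, the 8 skeletal muscle markers to 4.06 and 4.86 CPM and 48.5 and 106 CPM, and the 6 smooth muscle markers to 49.2 and 53.5 CPM and 177 and 74.4 CPM. Erythroid markers summed to 4974 and 9128 CPM in members and 8579 and 12977 CPM in the reference. These sums were below the 28681 and 33232 CPM of barcodes with 10 to 100 UMIs but above the mesenchyme markers. The median haemoglobin share of UMIs per barcode was 0.0508 and 0.0634% in members and 0.0521 and 0.0688% in the reference. The summed level was thus not that of a typical member. The 8 mesenchyme markers summed to 3671 and 3677 CPM in members, against 4500 and 4426 CPM in the reference, and all 8 were detected. The part of these other cells in the ratios to the reference was not tested.

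Summed markers of other mesenchyme of the tubercle were lower in members, apart from 1 group. Of Sim1, Tbx15, Agtr2 and Igf1 all 4 were past the fold and lower, with a sum of 36.8 and 49.3 CPM against 156 and 186 CPM in the reference. Aldh1a2 and Tcf21 were both lower, with a sum of 8.99 and 12.2 CPM against 44.2 and 30.2 CPM. Of Ogn, Foxf1, Npnt and Rspo3 3 were lower, with a sum of 137 and 178 CPM against 268 and 272 CPM, and of Foxd1, Sall3 and Lbx2 1 was lower (47.0 and 56.7 CPM against 90.9 and 97.2 CPM). Rprm, Pcdh10 and Spock3 summed to 491 and 477 CPM against 409 and 489 CPM, so that the sum alone stood near the reference. Rprm made up most of it in members (373 and 350 CPM). Of the 3 genes 1 was past the fold and lower and 0 higher, with a median of -0.35 and -0.48.

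Several high genes lay beside Dlx5 and Tac1. After the values had been seen, all measured genes whose span came within 1000 kb of a rule gene were listed. Of the 8 such genes around Dlx5 (outside the rule genes) 6 were past the fold and higher and 0 lower, with a median of 1.49 and 1.36. Of the 10 around Tac1, on the same stretch of chromosome, 5 were higher and 0 lower. Over all measured genes 3.73% were higher and 8.58% lower. The windows centre on genes that chose the members, so nothing is read from these counts. Sem1, Dlx6os1, Dlx6 and Asns were counted around both, and Glcci1 (0.87 and 0.81) around Tac1 alone. In order along chromosome 6, Dync1i1, a dynein subunit gene whose body is known to hold enhancers of Dlx5 and Dlx6, was at 32.1 and 24.02 CPM against 3.16 and 4.05 CPM (3.35 and 2.57). Slc25a13 followed, then Sem1, a proteasome subunit gene (901 and 848 CPM against 619 and 592 CPM, 0.54 and 0.52). Dlx6os1, the antisense RNA that overlaps Dlx6 on the other strand, was at 31.6 and 22.9 CPM against 1.71 and 1.67 CPM (4.21 and 3.78). Whether any reads of the overlapping pair are shared was not tested. Sdhaf3, between Dlx5 and Tac1, was at 0.41 and 0.30. Asns, the asparagine synthetase gene beyond Tac1, was at 57.7 and 54.5 CPM against 25.8 and 28.0 CPM (1.16 and 0.96).

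The counts around the other rule genes are given beside the same shares of all genes. Around Msx2 0 of 10 measured genes were higher and 2 lower, Syk (-0.74 and -0.73, from 8 and 9 member UMIs) and Ror2. Around Sp9 2 of 14 were higher, Map3k20 (0.81 and 0.90) and Sp3 (0.71 and 0.59), and 1 lower, Chrna1, a muscle receptor gene. Around Notum 2 of 52 were higher, its overlapping antisense RNA Notumos (2.89 and 2.84) and Gm11772 (1.11 and 1.35), and 0 lower.

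**Figure D3:**
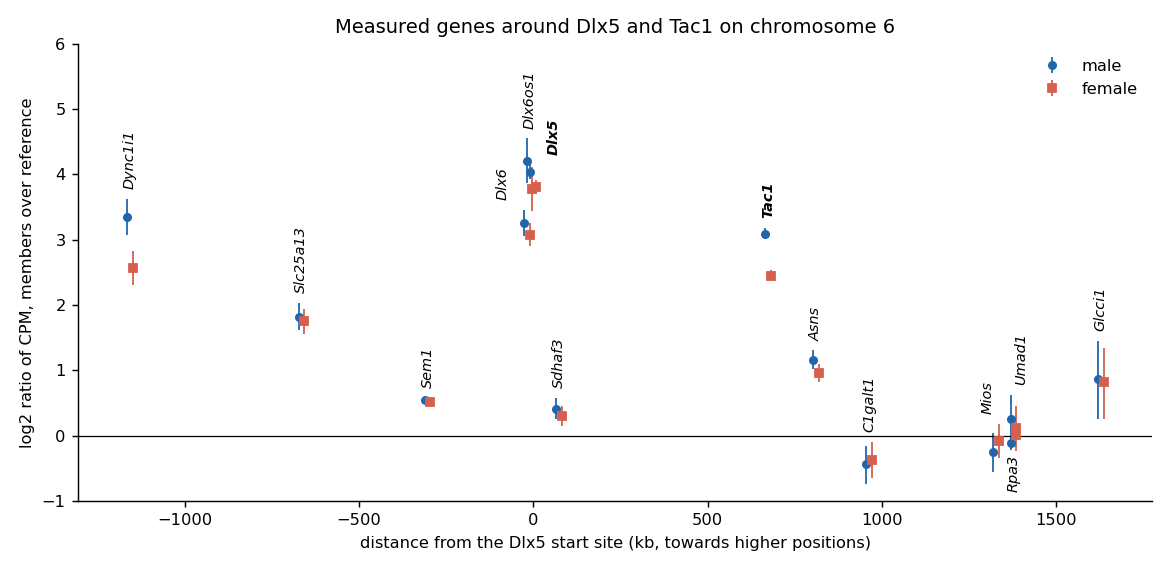
Log2 ratio of CPM in members over the reference (y axis) for measured genes around Dlx5 and Tac1 (bold), by distance of each start site from that of Dlx5 in kb (x axis); circles are the male and squares the female library, drawn slightly apart, and bars are exact 95% intervals for counting error. From Dync1i1 (3.35 and 2.57) to Asns (1.16 and 0.96) every gene but Sdhaf3 lies past 0.5 in both libraries, and C1galt1, beyond Asns, lies at -0.44 and -0.37.

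Levels were then set out by the number of rule genes a barcode carried, in barcodes thinned to 4000 UMIs each, with Dlx2 and Runx1 not used. Barcodes with a UMI of Epcam, Cdh5, Sox10 or Ptprc were left out after thinning. This left 12465 and 13456 barcodes, more than the 12192 and 13154 kept without thinning. The numbers of barcodes from 0 to 5 genes were 7046, 2302, 1489, 1075, 446 and 107 in the male and 7599, 2862, 1638, 965, 322 and 70 in the female library. Msx1 was at 82.8, 398, 807, 924, 1079.6 and 1154 CPM in the male series and at 101, 399, 820.5, 966, 1096 and 1193 CPM in the female series. Most of the difference thus lay between 0 and 2 rule genes. Of the 28 genes named against the reference, 5 were higher at each step in both libraries, Msx1, Bambi, Dlx6, Gm43376 and Prr5l, and 2 lower at each step, Col14a1 and Gria2. Of these, Bambi went from 77.4 to 1179.9 CPM and from 81.9 to 1271 CPM between 0 and 5 genes.

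Among other genes, some ended far from where they began and others were level or highest midway. Meis1 was at 168 and 176.5 CPM with 0 rule genes, at 29.9 and 31.9 CPM with 2, and at 2.34 and 3.57 CPM with 5. Col1a2 was lower at each step in both libraries, at 673 and 677 CPM with 0 and at 131 and 121 CPM with 5. Wnt5a was at 215 and 243 CPM with 0, 525 and 533 CPM with 2, and 561 and 532 CPM with 5, so that it was level from 2 genes on. Hoxd13 was highest at 2 genes (193 and 219 CPM, against 141 and 162 CPM with 0 and 131 and 171 CPM with 5). Isl1 stayed between 383 and 453 CPM in the male and between 396 and 482 CPM in the female series. The genes whose absence the rule required were higher with 5 rule genes than with 0, Dlx2 from 1.63 and 1.88 CPM with 0 to 119 and 114 CPM with 5, and Runx1 from 9.93 and 6.61 CPM to 121.5 and 96.4 CPM.

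**Figure D4:**
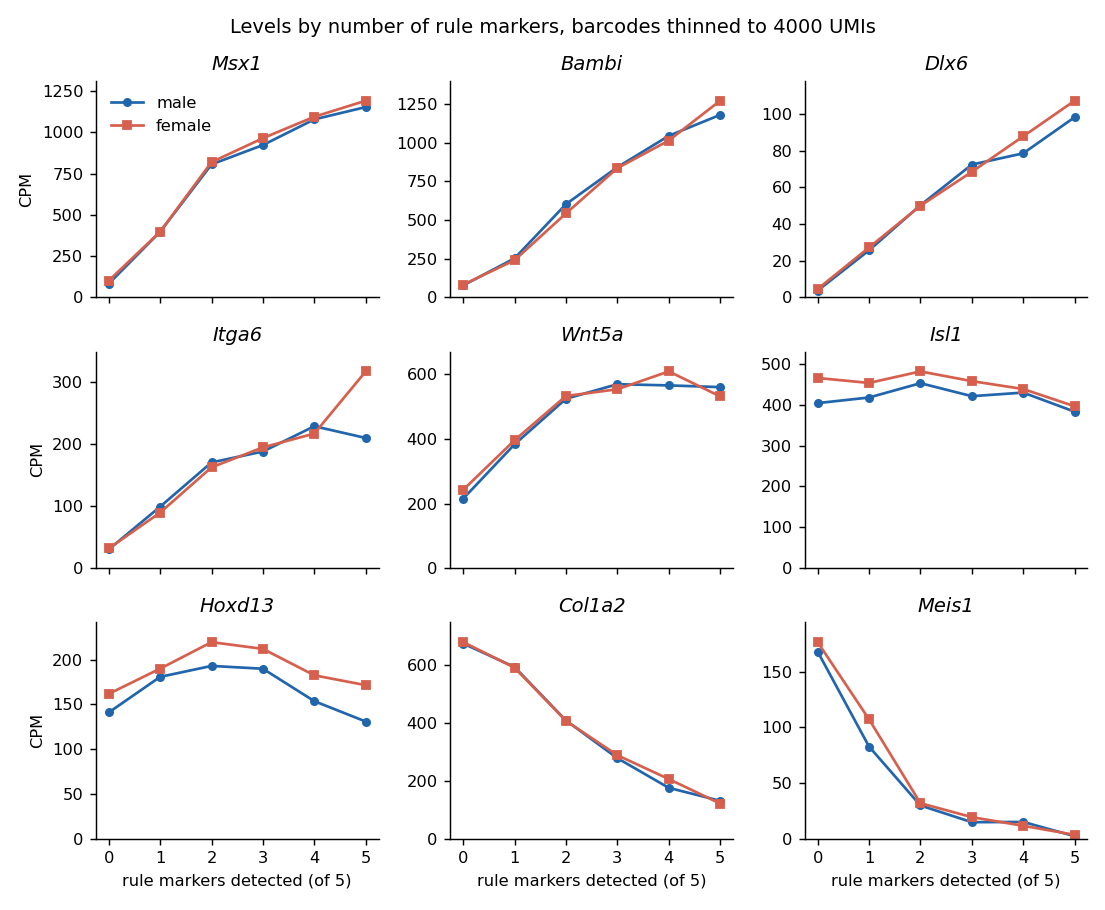
CPM (y axes, each from 0) of 9 genes by the number of the 5 rule genes detected (x axes). Barcodes were thinned to 4000 UMIs, and those with a UMI of Epcam, Cdh5, Sox10 or Ptprc were left out afterwards. Circles are the male and squares the female library. Msx1 goes from 82.8 to 1154 CPM in the male library and from 101 to 1193 CPM in the female library, Wnt5a is level from 2 genes on, and Meis1 goes from 168 to 2.34 CPM and from 176.5 to 3.57 CPM.

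Of all kept barcodes with 3 or more rule genes, 52.6 and 55.1% lacked both Dlx2 and Runx1 and were members. Among the rest 321 and 248 had Dlx2 alone, 441 and 459 Runx1 alone, and 373 and 310 both. In these distal barcodes with Dlx2 or Runx1 the rule genes were detected more often for Notum (51.7 and 56.2%, against 36.0 and 39.4% of members) and Sp9 (72.7 and 68.6%, against 64.9 and 60.6%), and about as often for Tac1 (70.2 and 61.4%) and Dlx5 (84.8 and 83.2%). Their median depth was higher (6787 and 7623 UMIs against 6066 and 6778.5 UMIs), and a deeper barcode is more likely to show a UMI of either gene. The part of depth in the values below was not tested beyond the thinned and deeper settings.

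Against these barcodes, the distal Msx2 mesenchyme differed in fewer genes than against the reference. Of 10882 genes 372 (3.42%) were past the fold in both libraries, 88 higher (0.809%) and 284 lower (2.61%), with a median over all genes of -0.01 and -0.00. The absence of Dlx2 and Runx1 chose the members here, so that this is again a description.

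Genes lower in members included transcription factors, a BMP ligand and genes of the Runx1 and Dlx2 cells. Pitx1, the hindlimb factor that was above the reference, was at 126 and 113 CPM in members against 318 and 290.1 CPM (-1.33 and -1.36). Vgll2, a cofactor of TEAD factors, was at 37.5 and 27.6 CPM against 116 and 86.8 CPM (-1.63 and -1.65). Gata3 was at 43.9 and 45.6 CPM against 105 and 101 CPM (-1.26 and -1.14). Pitx1 and Gata3 were thus intermediate in members, above the reference and below the barcodes with Dlx2 or Runx1. Bmp5 was at 8.11 and 10.03 CPM against 39.4 and 38.4 CPM (-2.28 and -1.94), and Lmo2, a LIM-only cofactor known from blood and endothelium, at 15.9 and 15.4 CPM against 66.2 and 49.9 CPM (-2.06 and -1.70). Igfbp7 (-1.68 and -1.90, overlapping Polr2b), the dioxin receptor gene Ahr (-1.65 and -1.88), Gata6 (-1.52 and -1.96) and Dlx3 (-1.52 and -1.43) were also among the 8 lowest. Endothelial markers summed to 8.88 and 9.13 CPM in members and 12.8 and 9.66 CPM in the barcodes with Dlx2 or Runx1, and their part in the Lmo2 value was not tested. Erythroid markers summed to 4974 and 9128 CPM in members and 5128 and 3694 CPM in the barcodes with Dlx2 or Runx1 (-0.04 and 1.31), so that the libraries differed, and their part in these ratios was not tested.

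Genes higher in members were fewer and their ratios smaller. Pdlim3, which encodes an actinin-binding protein, was at 80.7 and 82.3 CPM against 28.9 and 42.1 CPM (1.48 and 0.97). Tmem100, a membrane protein gene that BMP signals can induce, was at 43.0 and 42.9 CPM against 16.9 and 24.5 CPM (1.35 and 0.81). Irx5, an Iroquois homeodomain factor, was at 105 and 107 CPM against 52.0 and 61.6 CPM (1.01 and 0.80), and was below the reference (134 and 178 CPM) in both. Cdo1, which encodes cysteine dioxygenase, was at 148 and 144 CPM against 90.9 and 92.4 CPM (0.70 and 0.64). The others of the 8 highest were the agouti gene a (0.69 and 0.60, with spans of Raly and Eif2s2 overlapping it), the protocadherin gene Pcdh10 (0.68 and 0.55), Col4a1 (0.57 and 0.54, overlapping Col4a2) and Lrig3 (0.65 and 0.54). With a minimum of 10000 UMIs, an alternative chosen after seeing the data, Tmem100 was at 0.26, Cdo1 at 0.32, a at 0.32 and Pcdh10 at 0.33 in the library nearer 0. When members were weighted to the marker numbers of the other set, also chosen after seeing the data, Pcdh10 (0.48), Col4a1 (0.45) and Lrig3 (0.48) were short of the fold. With a mitochondrial limit of 5%, Irx5 (0.08), Col4a1 (0.08), a and Lrig3 (both 0, with opposite signs or no difference between the libraries) were short of it. Thinning to 4000 UMIs brought Col4a1 to 0.42, and a minimum of 6000 UMIs brought a to 0.43 and Pcdh10 to 0.48. With 4 or more rule genes Pcdh10 was at 0.45 and Lrig3 at 0.38.

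**Figure D5:**
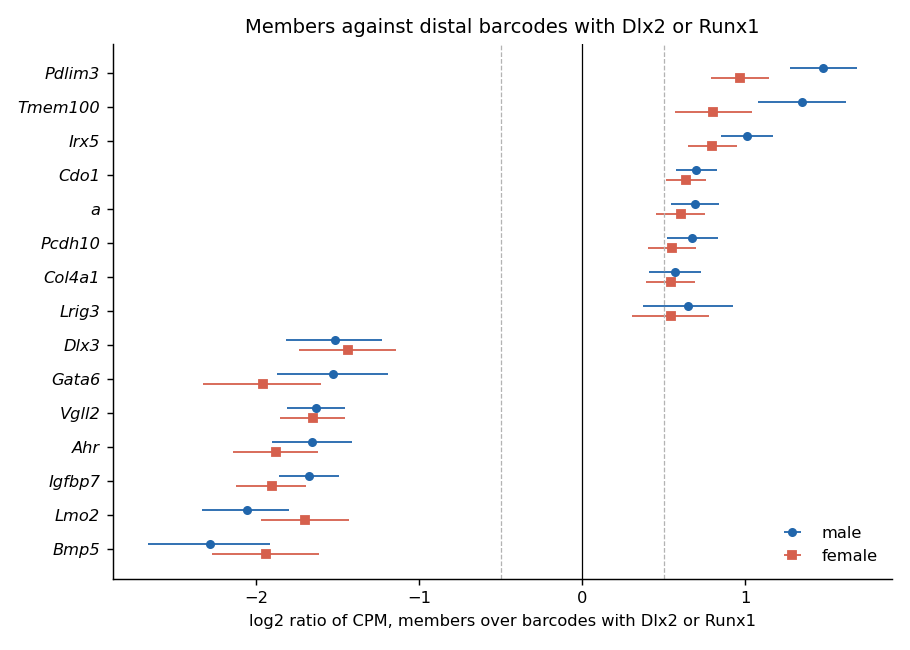
Log2 ratio of CPM in members over distal barcodes with Dlx2 or Runx1 (x axis) for genes among the 8 highest and 8 lowest under the naming rule (y axis); circles are the male and squares the female library, bars are exact 95% intervals for counting error and dashed lines mark 0.5 and -0.5. By the ratio nearer 0, Bmp5 is placed lowest (-2.28 and -1.94) and Pdlim3 highest (1.48 and 0.97), and in the female library Gata6 reaches -1.96.

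The set with Dlx2 or Runx1 was not uniform. Pitx1 was at 250.3 and 219 CPM in barcodes with Dlx2 alone, 314 and 282 CPM with Runx1 alone and 371 and 351 CPM with both, each above the members. Vgll2 was at 110.3 and 92.5 CPM with Dlx2 alone, 90.4 and 67.7 CPM with Runx1 alone and 149 and 111 CPM with both. Bmp5 was at 30.4 and 30.02 CPM with Dlx2 alone, 36.5 and 31.5 CPM with Runx1 alone and 49.2 and 54.3 CPM with both. Irx5 was at 54.5 and 65.5 CPM, 56.5 and 68.6 CPM, and 44.9 and 48.8 CPM in the same order, each below the members. The members thus lay beyond all 3 subsets for these 4 genes, and on the side of the subsets with 1 of the 2 genes rather than with both.

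Among the lists, members were lower in 4 of 6 Msx, Dlx and Sp factors, Sp6 (-2.36 and -2.90), Sp7 (-1.52 and -1.66), Sp5 (-1.54 and -1.46) and Dlx3, while Dlx6 (-0.15 and -0.01) and Msx1 (-0.35 and -0.40) were short of the fold. Of 35 regional factors 3 were higher, among them Irx5 and Irx3 (1.08 and 0.76), and 5 lower, Gata6, Pitx1, Gata3, Gata2 (-1.18 and -1.36) and Mab21l2 (-1.02 and -1.15). Of 10 BMP response genes 0 were higher and 3 lower, Hey1 (-0.69 and -0.86), Bambi (-0.58 and -0.63) and Smad6 (-0.52 and -0.65). Of 11 FGF response genes 3 were lower, Spry4 (-0.67 and -0.74), Spry1 (-0.63 and -0.90) and Dusp6 (-0.61 and -0.52). The BMP and FGF feedback genes that were past the fold here were thus lower in members than in the barcodes with Dlx2 or Runx1, and Bambi, Hey1, Spry1 and Spry4 were at the same time above the reference.

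Of 6 Wnt ligand genes Wnt6 (-1.86 and -2.18) and Wnt4 (-1.03 and -1.03) were lower and Wnt2 (0.59 and 0.73) higher, and Wnt5a was at -0.09 and -0.11. Of 20 Wnt response genes Nkd1 (-0.53 and -0.59), Fzd1 (-0.67 and -0.57) and Rnf43 (-0.999 and -2.10) were lower, and of 10 secreted antagonists and R-spondins Dkk3 (-0.84 and -0.78) and Wif1 (-0.62 and -0.60) were lower and Sostdc1 (0.70 and 0.80) higher. Of 13 Hedgehog genes Foxf2 (0.53 and 0.74) was higher and 0 were lower, and of 11 retinoic acid genes the binding protein gene Crabp1 (0.57 and 0.51) was higher and 0 were lower. Of 14 immediate early and heat shock genes 4 were lower, Junb (-0.91 and -0.80), Jun (-0.86 and -0.62), Egr1 (-0.86 and -0.53) and Atf3. The 22 S phase and 24 mitosis genes held 0 past the fold in either direction.

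Between the sexes, the distal Msx2 mesenchyme was compared as 1 male and 1 female pool, so that sex, pool and library cannot be told apart. Of 9667 genes 235 (2.43%) were past the fold, 104 higher (1.08%) and 131 lower (1.36%) in the male library, with a median of -0.03. The split was 141 higher and 96 lower after centring on that median, and 133 and 108 after scaling without mitochondrial, ribosomal, haemoglobin and rule genes. Centring raised every ratio by the same amount, so all 104 genes higher had to stay called, and 96 of the 131 lower did. Thinning to 4000 UMIs left 7234 genes measured, and 19 higher and 23 lower were shared with the calls reported. With 4 or more rule genes 22 and 29 were shared. A minimum of 6000 UMIs shared 46 and 68, and a minimum of 2000 UMIs 78 and 93.

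Of the genes of distal identity, some were close in both sexes and others higher in male members, all short of the fold. Tac1 was at 268 and 200.03 CPM (0.42, 0.34 to 0.51), Gm43376 at 99.0 and 72.1 CPM (0.46, 0.32 to 0.60) and Prr5l at 52.96 and 39.0 CPM (0.44, 0.25 to 0.64). In the reference Tac1 was at 31.3 and 36.7 CPM, Gm43376 at 4.78 and 4.37 CPM and Prr5l at 10.3 and 11.4 CPM. More male than female members held all 5 rule genes (8.81 against 5.84%), and the part of this in the 3 ratios was not tested. Msx2 (0.17), Sp9 (0.19) and Dlx5 (0.16) differed less, and Notum was at 0.04. Msx1 had a male over female ratio of 0.02 (-0.03 to 0.06), Dlx6 of -0.06, Wnt5a of -0.00, Hoxa13 of 0.05, Hoxd13 of -0.09 and Isl1 of -0.13. Bmp4 was at 0.29 (0.14 to 0.43) and Axin2 at -0.29 (-0.43 to -0.14), short of the fold. Of 4 Msx, Dlx and Sp factors, 10 BMP response genes, 11 FGF response genes and 19 Wnt response genes measured, 0 in each list were past the fold.

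Of the 10 highest genes under the naming rule, several are hard to assign to 1 gene. The overlapping RNAs AY036118 (282 and 89.3 CPM, 1.66) and Gm42418 (1.01), the near-identical histone genes Hist1h2ap (229 and 77.3 CPM, 1.57), Hist1h2ab (1.02) and Hist1h2ae (0.88), and Gm10076 (0.88), Lars2 (0.73) and Rps6 (0.70) were among them. In the reference Hist1h2ap was at 1.56, AY036118 at 1.62 and Rps6 at 0.69, near the values in members. The nuclear import gene Kpna2, the lowest of the 10, was at 50.8 and 32.2 CPM (0.66, 0.45 to 0.87) in members and at 0.42 in the reference.

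Among the 10 lowest, Kdm6a (-0.87), Eif2s3x (-0.76) and Pbdc1 (-0.60) are X-linked, and Gm47283 (-1.18, annotated on the Y chromosome), AC160336.1 (-0.77) and Nmt1 (-0.71, overlapping Dcakd) were lower in the male reference as well (-1.15, -0.67 and -0.48). The remaining 4 were Nr2f2 (22.8 and 39.4 CPM, -0.79, -1.04 to -0.54), Creb5 (26.4 and 43.1 CPM, -0.71), Foxp1 (53.4 and 84.4 CPM, -0.66) and Mmp16 (22.04 and 34.2 CPM, -0.64). In the reference Nr2f2 was at -0.18, Creb5 at -0.15, Foxp1 at -0.47 and Mmp16 at -0.27, and whether members and reference differ in this was not tested. With barcodes thinned to 4000 UMIs before the rule, Nr2f2 (-0.32), Creb5 (-0.48), Foxp1 (-0.47) and Mmp16 (-0.10) were all short of the fold.

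The lists held few other differences between the sexes. Wnt5b was higher in male members (17.4 and 11.02 CPM, 0.66, 0.30 to 1.02). Grem1 (8.005 and 14.1 CPM, -0.82), Rspo3 (75.0 and 113 CPM, -0.59) and Foxf2 (79.1 and 112 CPM, -0.50) were lower in male members. Shox2 (-0.55), Hoxc9 (-0.56), Satb1 (-0.52), Egr1 (-0.50) and the imprinted non-coding Mirg (-0.87) were also lower, and Esr1 was at 0.17 (-0.38 to 0.71). With a mitochondrial limit of 5%, which left 41 and 62 members, Grem1 (0.43), Shox2 (0.89), Hoxc9 (3.02), Satb1 (2.69) and Egr1 (0.65) turned direction.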

How the data were processed

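Cells of the genital tubercle were captured with the 10x Genomics system, and the authors deposited for each library an unfiltered matrix of UMI counts per gene and barcode, made with Cell Ranger 3.1 on mm10 per the submitters' processing notes. The annotation version is not given in the sources used here, and coordinates come from the mm10 gene models in the reference tables, matched by gene ID.

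Counts were summed over the barcodes of a group in each library and scaled to CPM, with Python 3.11.15, numpy 2.4.6, scipy 1.17.1, pandas 2.3.3 and matplotlib 3.10.9. Ratios have exact conditional intervals for 2 Poisson counts and shares have Clopper-Pearson intervals. The interval code was checked on simulated counts. A gene was measured with at least 100 UMIs summed over both groups, and called past the fold at a log2 ratio of 0.5 in size, in both libraries with the same sign for comparisons of barcodes.

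Genes were named by rank among those with at least 30 CPM in the higher group of each library: the 16 highest and 12 lowest against the reference, 8 and 8 against distal barcodes with Dlx2 or Runx1, and 10 and 10 between the sexes, using the ratio nearer 0 of both libraries. Up to 6 measured genes per list with the largest ratio in size, past the fold or not, and a set of textbook genes were added. Some genes that the rule picks are not reported here. Members and lists were chosen with earlier results of these data known. Genes beside the rule genes, splits among members and list genes beyond these were chosen after their values were seen.

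No doublet caller was run. Barcodes over 20000 UMIs (16 and 24 members) were left out in an alternative. Other alternatives changed the UMI minimum, the mitochondrial limit, the number of rule genes, the depth (thinned to 4000 UMIs), the scaling and the UMI minimum per gene. Overlapping and near-identical genes are named where the counting could split them.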

Additional observations from a re-analysis of the deposited data

Results flagged for a closer look

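For 4 genes the male over female log2 ratio had opposite signs in the distal Msx2 mesenchyme and in the reference, with neither counting interval reaching 0. Wnt11, a non-canonical Wnt ligand gene, was at 0.40 (0.02 to 0.78) in members and at -0.12 (-0.22 to -0.02) in the reference. Sfrp2, which encodes a secreted Wnt antagonist, was at -0.17 (-0.29 to -0.05) in members and at 0.13 (0.09 to 0.16) in the reference. Rarb, a retinoic acid receptor gene, was at -0.38 (-0.73 to -0.03) in members and at 0.11 (0.01 to 0.20) in the reference. Epha3, an ephrin receptor gene, was at -0.59 (-0.88 to -0.31) in members and at 0.08 (0.02 to 0.15) in the reference, and was the only 1 of the 4 past the fold in members. The difference between members and reference was not tested, since each sex had a single library. The number of genes looked through, and the number that counting error alone would give, are not given here.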

How the results depend on the processing

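No paired analysis was possible because each sex had a single library. The share of members in the male library was 11.0007% with a minimum of 6000 UMIs, 4.83% with a mitochondrial limit of 5%, 3.93% with 4 or more rule genes and 7.998% in barcodes thinned to 4000 UMIs. In the female library it was 8.99% with a minimum of 2000 UMIs, 10.9% with 6000, 7.43% with the mitochondrial limit of 5%, 3.23% with 4 or more rule genes and 6.42% after thinning. The mitochondrial limit of 5% left 41 male and 62 female members. It gave 949 genes past the fold against the reference, 107 against distal barcodes with Dlx2 or Runx1 and 106 between the sexes. A minimum of 20 UMIs per gene gave 2511, 800 and 939, and a minimum of 500 UMIs gave 907, 143 and 40. A minimum of 10000 UMIs, chosen after seeing the data, gave 238 against distal barcodes with Dlx2 or Runx1. Thinning moved the split against those barcodes to 119 higher and 220 lower, of which 25 and 140 were shared with the calls reported. With the mitochondrial limit of 5% the split between the sexes was 75 higher and 31 lower. Directions that turned with that limit were those of Mkx against the reference (-0.55), Hoxc9 (0.94) and Fmod (0.61) against distal barcodes with Dlx2 or Runx1, and Satb1 (2.69), Shox2 (0.89), Hoxc9 (3.02), Grem1 (0.43) and Egr1 (0.65) between the sexes. Thinning turned Col9a1 against distal barcodes with Dlx2 or Runx1 (0.17). The cause was not tested, beyond the fewer barcodes or genes that each setting leaves. The 28 genes named against the reference had been picked for large ratios, the smallest in size being -1.55 for Creb5. Falling under the fold was thus unlikely for them. For these 28 genes 0 of 364 values over the alternatives were under the fold. For the 16 named against distal barcodes with Dlx2 or Runx1 it was 19 of 224 values, and for the 20 named between the sexes 10 of 240, among them Mmp16, Nr2f2, Creb5 and Foxp1. For 19 values of list genes an alternative left 0 UMIs in a group and gave no ratio.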

Other observations

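The members were not uniform. Splitting them by a single rule gene, in barcodes thinned to 4000 UMIs, gave genes that differed in both libraries. These genes were chosen after their values were seen, and the rule fixes part of each split, since a member without a given rule gene must carry 3 of the other 4.

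Members with Tac1 (879 and 810 barcodes) and without it (381 and 440) differed in Ntm, which encodes the adhesion protein neurotrimin, at 99.0 and 98.5 CPM with Tac1 against 25.6 and 30.1 CPM without. Alx1, a homeodomain factor of skeletal patterning, was at 71.7 and 73.5 CPM against 22.3 and 30.1 CPM, and Rprm at 452 and 450.3 CPM against 197 CPM in both libraries. Igfbp5, an IGF-binding protein gene, was at 118 CPM in both libraries against 317 and 252 CPM. Sox9, the cartilage factor gene, had log2 ratios of -1.10 and -1.14, and was thus lower where Tac1 was detected.

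Members with Notum (454 and 492 barcodes) had Mgp, which encodes a matrix protein that limits calcification, at 278 and 261 CPM against 123 and 100.3 CPM in members without Notum. Npnt, a matrix protein gene, was lower with Notum (-1.94 and -1.99), as was the transcription factor gene Mef2c (-1.19 and -1.37). Members with Sp9 (818 and 757 barcodes) had Gm43376 at 148 and 102.7 CPM against 59.95 and 50.7 CPM without Sp9. Dkk1, which encodes a Wnt antagonist, was at 65.1 and 62.1 CPM with Sp9 and at 170 and 176 CPM without it.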
